A study of Mus musculus with 12 samples.

Results

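Elastic fibers and the zonule that suspends the lens are built from fibrillin microfibrils, elastin and the proteins that attach to them. The 10 genes described here encode such proteins and were chosen by name: the fibrillin Fbn1, its partner Mfap2, elastin (Eln), the fibulins Fbln1, Fbln2, Fbln5, Efemp1 and Efemp2, and the emilins Emilin1 and Emilin3. Each name was looked up among the 24147 genes of the deposited count files, and all 10 were found once. All 10 also passed the filter on low counts, which left 14560 genes to test. The choice used no threshold on a measured value, but it was made with earlier results of the same libraries known. The counts of genes past a threshold given below are therefore descriptions of this selection.

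The libraries came from the lens capsule with the lens epithelial cells attached to it, taken from mice 2 months old after the fiber cells had been pulled out through an incision in the cornea, a mouse model of cataract surgery. Fibronectin conditional knockout mice (FNcKO) and wild type mice (WT) were each sampled 48 h after surgery and at 0 h, directly after it, with 3 libraries in each of the 4 groups. The FNcKO strain was a mix of C57BL/6, 129 and FVB/N and the WT strain was C57BL/6, so genotype and strain background cannot be told apart. All groups, those at 0 h included, had undergone the surgery. The sources used here do not give the promoter behind the Cre, the deleted exons or the number of lenses or animals in a library, so the p-values measure the spread between these libraries.

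Microfibrils are bundles of fibrillin that either stand alone, as in the zonule between the ciliary body and the lens capsule, or act as a scaffold on which elastin is laid down and crosslinked. Fibulins are secreted glycoproteins that link microfibrils, elastin and basement membranes, and emilins lie at the border between elastin and microfibrils. In the eye, most zonule protein is made by the non-pigmented epithelium of the ciliary body, while the lens epithelium makes the capsule.

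Libraries held 8368160 to 10862573 counts. Levels are given as CPM, in which a gene's count is scaled to a common library total, after adjustment of the totals by TMM. Fn1, the targeted gene, stood at 146, 298 and 688 CPM in FNcKO libraries at 48 h, against 1515, 528 and 979 CPM in WT at 48 h, and at 16.8, 9.81 and 8.32 CPM in FNcKO at 0 h, against 18.96, 23.1 and 15.5 CPM in WT at 0 h. The libraries of the genotypes overlapped at both times in this gene, and whole-gene counts do not check a deletion of unknown extent. All 5 lens epithelium markers were present in every group. The summed level of 8 lens fiber cell markers was 223 to 2762 CPM in FNcKO at 48 h, against 4274 to 9457 CPM in FNcKO at 0 h, and 306 to 1212 CPM in WT at 48 h, against 3460 to 5260 CPM in WT at 0 h. In each genotype 4 of these 8 fell past the threshold. No marker was at 0 in all 3 libraries of a group, and Birc7 and Dnase2b were at 0 in WT replicate 1 at 48 h. In such bulk libraries, fewer cells of a type and less RNA per cell cannot be told apart.

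By 48 h the elastic fiber genes had moved in both directions. Fbln2 rose strongly and Efemp2 rose 1.98-fold in FNcKO and 2.12-fold in WT, Emilin3 and Mfap2 fell in both genotypes, and Fbln1 and Fbln5 fell past the threshold in WT. A gene was called at an adjusted p under 0.05 (edgeR quasi-likelihood test, Benjamini-Hochberg over all tested genes). In FNcKO, 2 of the 10 genes rose and 2 fell, where 24.8% of all tested genes were called, and the median log2 fold change of the 10 was 0.08 against 0.00182 over all tested genes. In WT, 2 rose and 4 fell, where 32.6% of all tested genes were called, and the median was −0.17 against 0.02 over all. Neither genotype comparison called any of the 10, as described further on.

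**Figure D1:**
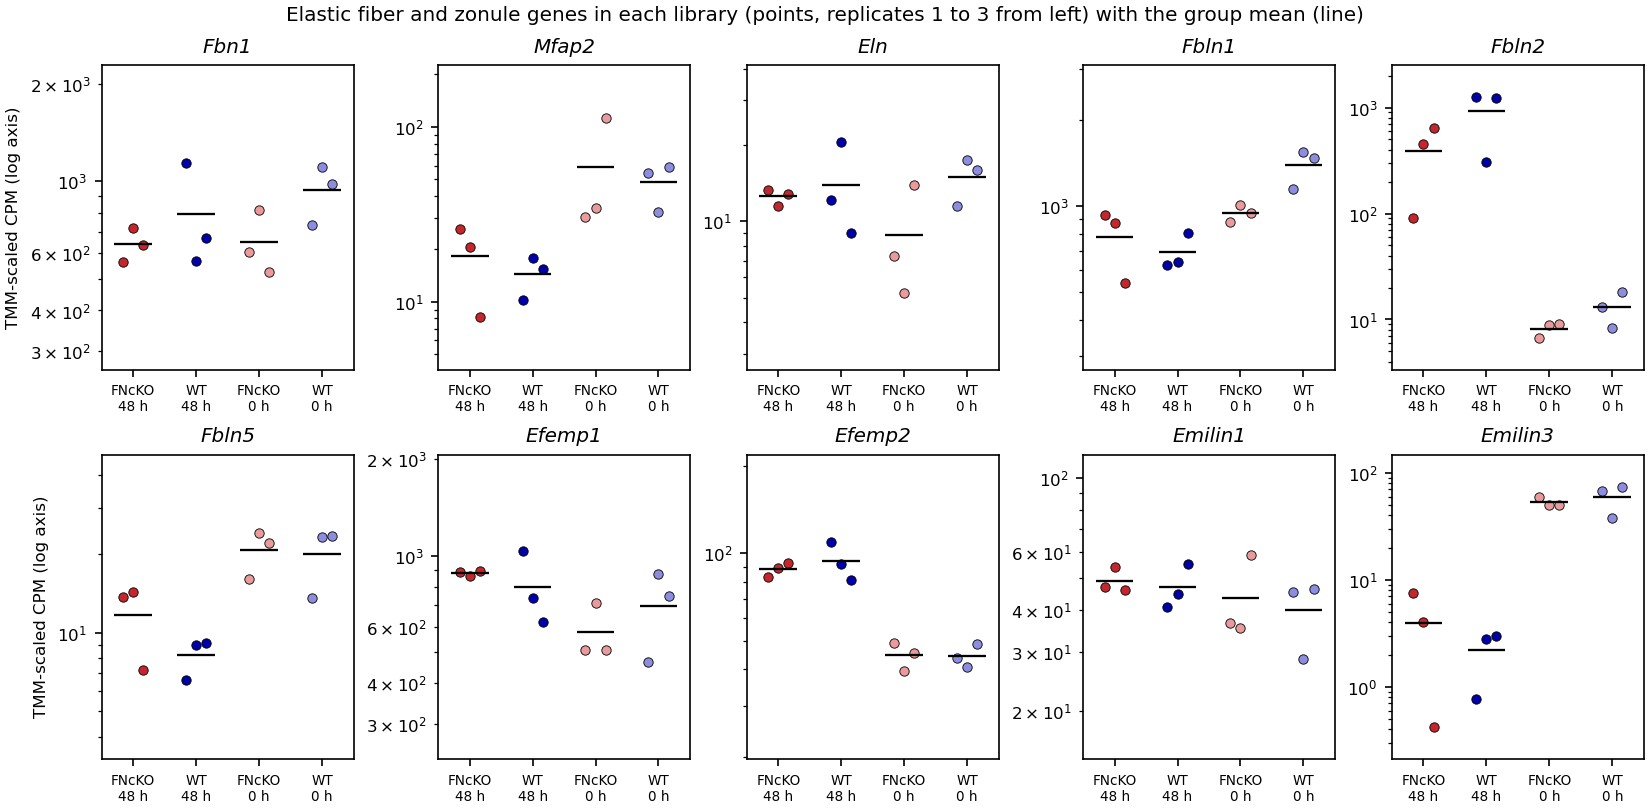
Level of each of the 10 genes in each library, in TMM-scaled CPM on a log axis, with FNcKO then WT at 48 h, followed by FNcKO then WT at 0 h, from left to right; points are replicates 1 to 3 and lines are group means. The 48 h libraries of Fbln2 and Efemp2 lie above, and those of Emilin3 and Mfap2 below, the 0 h libraries of the same genotype.

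The sequence before the start of 3 genes that were called in both genotypes is printed to show what stands upstream of genes that moved the same way (Fbln2 and Efemp2, higher at 48 h) and the opposite way (Mfap2, lower at 48 h). Each run is the 250 bases before the annotated start, on the plus strand of mm10 (RefSeq, GRCm38.p6). Fbln2 is at chr6:91212514-91212763, Efemp2 at chr19:5474440-5474689 and Mfap2 at chr4:141010174-141010423. Capitals mark the SP1 box GGGCGG, which reads CCGCCC on the other strand, or the CCAAT box, which reads ATTGG on the other strand.
Fbln2: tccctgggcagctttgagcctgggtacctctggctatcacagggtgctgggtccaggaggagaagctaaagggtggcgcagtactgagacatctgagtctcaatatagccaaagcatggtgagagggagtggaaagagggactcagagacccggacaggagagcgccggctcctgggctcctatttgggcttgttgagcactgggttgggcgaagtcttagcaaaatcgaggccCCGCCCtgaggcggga
Efemp2: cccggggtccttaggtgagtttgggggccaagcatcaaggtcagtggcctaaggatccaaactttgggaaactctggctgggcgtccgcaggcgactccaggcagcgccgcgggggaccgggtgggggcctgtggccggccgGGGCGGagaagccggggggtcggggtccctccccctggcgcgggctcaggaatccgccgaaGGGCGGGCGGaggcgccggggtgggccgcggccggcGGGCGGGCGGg
Mfap2: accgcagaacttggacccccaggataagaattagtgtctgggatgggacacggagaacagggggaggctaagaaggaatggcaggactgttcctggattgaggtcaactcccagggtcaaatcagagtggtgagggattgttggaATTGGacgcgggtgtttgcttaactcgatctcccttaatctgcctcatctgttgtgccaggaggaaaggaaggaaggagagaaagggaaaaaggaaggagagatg
RefSeq windows were matched for 8 of the 10 genes, and Eln and Emilin3 are named only. Both strands of the 250 bases were searched for 5 motifs, which were the AP-1 site TGANTCA, the TATA box (letters TATAAA), the CCAAT box, the SP1 box and the SMAD site GTCTAGAC. Fbln2 held 1 SP1 box, which ends 11 bases before the start, and no other of the 5 motifs. Efemp2 held 5 SP1 boxes, of which 4 form overlapping pairs, and Mfap2 held 1 CCAAT box and no SP1 box. SP1 boxes were found in 32.7% of all 32851 windows of this length and CCAAT boxes in 33.9%. AP-1 sites, found in 6.75% of all windows, occurred among the 8 matched genes only in Efemp1.

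Fbn1, on chromosome 2 from 125300594 to 125506438 (mm10), encodes fibrillin-1, the main protein of microfibrils and of the zonule. It had 563, 717 and 639 CPM in FNcKO at 48 h, against 605, 817 and 525 CPM in FNcKO at 0 h, and 1141, 568 and 669 CPM in WT at 48 h, against 734, 1105 and 984 CPM in WT at 0 h. The libraries of the 2 times overlapped in both genotypes, and the gene passed in neither (FNcKO log2 fold change −0.02 with SE 0.27, adjusted p = 0.968 by edgeR and BH; WT −0.25, SE 0.27, BH-adjusted p = 0.513). WT replicate 1 at 48 h was the highest of the 12 libraries.

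Markers of the non-pigmented ciliary epithelium, which makes fibrillin-1, were present at both times. Their summed level over 4 genes was 771 to 1132 CPM in FNcKO at 48 h, against 855 to 1158 CPM in FNcKO at 0 h, and 489 to 839.7 CPM in WT at 48 h, against 995 to 1341 CPM in WT at 0 h. None of the 4 was called over time in FNcKO, and none was at 0 in any library. In WT 2 of the 4, Optc and Wfdc1, fell. Zic1 and Zic2 had log2 fold changes of 0.34 and 0.15 in WT and were not called. Optc, which encodes opticin and led this sum, ranged from 262 to 1082 CPM. How much of the Fbn1 level came from attached ciliary cells was not tested.

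Mfap2, on chromosome 4 from 141010424 to 141015984, encodes a small glycoprotein that sits on fibrillin microfibrils. It had 26.1, 20.5 and 8.14 CPM in FNcKO at 48 h, against 30.4, 34.4 and 113 CPM in FNcKO at 0 h. In WT it had 10.2, 17.7 and 15.4 CPM at 48 h, against 54.2, 32.5 and 59.03 CPM at 0 h. All 48 h libraries lay below all 0 h libraries of the same genotype, and FNcKO replicate 3 at 0 h stood far above the others.

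The fall passed in FNcKO (log2 fold change −1.69 with SE 0.54, adjusted p = 0.04 by edgeR and BH) and in WT (log2 fold change −1.75 with SE 0.54, adjusted p = 0.0287 by edgeR and BH). Its call was lost in 8 of 19 alternatives in each genotype, while the other 8 calls among the 10 genes held in all 19. Without FNcKO replicate 3 at 0 h the FNcKO value was −0.86 (edgeR, BH-adjusted p = 0.168). The FNcKO call was also lost without FNcKO replicate 3 (−1.34, 0.133) or 2 (−1.78, 0.0717) at 48 h, and without WT replicate 2 or 3 at 48 h or WT replicate 1 at 0 h (−1.69 in each, adjusted p 0.053 to 0.0575 by edgeR and BH). In WT, leaving out replicate 1, 2 or 3 at 48 h, or replicate 1 or 3 at 0 h, ended the call, with log2 values of −1.92 to −1.55 (adjusted p 0.0543 to 0.102 by edgeR and BH). Without the filter on low counts the adjusted p was 0.0772 in FNcKO and 0.058 in WT, and without replicate 1 of both genotypes at 0 h it was 0.0547 in WT (edgeR, BH). The eighth in each genotype was the replicate block. FNcKO replicate 3 at 0 h also had the highest fiber cell marker sum, 9457 CPM, and the part of fiber cell content in the Mfap2 level was not tested.

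Eln, on chromosome 5 from 134702596 to 134747254, encodes tropoelastin, the soluble precursor of the elastic core. Its level was low in every library. FNcKO libraries had 13.3, 11.5 and 12.8 CPM at 48 h, against 7.27, 5.19 and 13.9 CPM at 0 h. WT libraries had 12.1, 20.6 and 9.03 CPM at 48 h, against 11.4, 17.4 and 15.9 CPM at 0 h. The times overlapped in both genotypes and neither comparison passed (FNcKO log2 fold change 0.52 with SE 0.37, adjusted p = 0.329 by edgeR and BH; WT −0.10, SE 0.36, BH-adjusted p = 0.849).

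Fbln2, on chromosome 6 from 91212764 to 91272540, encodes fibulin-2, a matrix glycoprotein that binds fibronectin, fibrillin and basement membrane proteins. FNcKO libraries held 91.6, 449 and 638 CPM at 48 h, against 6.71, 8.89 and 9.04 CPM at 0 h. WT libraries held 1254, 309.5 and 1230 CPM at 48 h, against 13.1, 8.26 and 18.2 CPM at 0 h. Every 48 h library stood above every 0 h library, with wide spread at 48 h.

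The rise was 47.9-fold in FNcKO (log2 fold change 5.58 with SE 0.78, adjusted p = 0.000691 by edgeR and BH) and 70.7-fold in WT (log2 fold change 6.14 with SE 0.79, adjusted p = 0.00031 by edgeR and BH). It kept its call in all 19 alternatives in both genotypes. FNcKO replicate 1 at 48 h, with the lowest Fbln2 of that group, had the highest fiber cell marker sum of the group, where the sums of replicates 1 to 3 were 2762, 934 and 223 CPM. In WT at 48 h the sums were 306, 1212 and 1073 CPM, and replicate 2, with the lowest Fbln2, had the highest. The part of fiber cell content in this spread was not tested. Of 6 fibroblast and corneal stroma markers, 3 passed the filter on low counts, and the defining genes Kera and Dpt were at most 0.317 and 0.211 CPM in any library. The summed level of the 6 was 29.7 to 225 CPM in FNcKO at 48 h, against 348 to 456 CPM in FNcKO at 0 h. In WT it was 60.3 to 139 CPM at 48 h, against 241 to 506 CPM at 0 h. Pdgfra alone had 27.2 to 213 CPM in FNcKO at 48 h, against 194 to 368.5 CPM at 0 h. In WT it had 57.1 to 135 CPM at 48 h, against 234 to 491 CPM at 0 h. The sum thus mainly followed this gene, and which cells its transcripts came from was not tested. Pi16, another of the 6, had 0.437 to 1.16 CPM in FNcKO at 48 h, against 0.115 to 0.717 CPM at 0 h. In WT it had 0.519 to 2 CPM at 48 h, against 0 to 0.408 CPM at 0 h. The part of fibroblasts in the Fbln2 level was not tested.

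Fbln1, on chromosome 15 from 85206008 to 85286294, encodes fibulin-1, a fibronectin-binding protein of elastic fibers and basement membranes. It had 931, 875 and 537 CPM in FNcKO at 48 h, against 878, 1011 and 946 CPM in FNcKO at 0 h, and 625, 637 and 809 CPM in WT at 48 h, against 1143, 1551 and 1473 CPM in WT at 0 h. In FNcKO the times overlapped, while in WT all 48 h libraries lay below all 0 h libraries. It did not pass in FNcKO (log2 fold change −0.27 with SE 0.23, adjusted p = 0.427 by edgeR and BH) and fell in WT (log2 fold change −1.01 with SE 0.24, adjusted p = 0.00573 by edgeR and BH). The difference between these responses did not pass (log2 difference 0.73 with SE 0.33, adjusted p = 0.945 by edgeR and BH), with an unadjusted p of 0.0438.

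Fbln5, on chromosome 12 from 101746565 to 101819119, encodes fibulin-5, which binds tropoelastin and is needed for elastic fiber assembly in mice. It had 13.6, 14.3 and 7.19 CPM in FNcKO at 48 h, against 15.99, 24.01 and 22.1 CPM in FNcKO at 0 h, and 6.57, 8.94 and 9.13 CPM in WT at 48 h, against 13.5, 23.2 and 23.5 CPM in WT at 0 h. All 48 h libraries lay below all 0 h libraries of the same genotype. In FNcKO the gene missed the threshold (log2 fold change −0.82 with SE 0.30, adjusted p = 0.0618 by edgeR and BH) but passed with DESeq2 (log2 fold change −0.84, BH-adjusted p = 0.0391). The fall passed in WT (log2 fold change −1.29 with SE 0.30, adjusted p = 0.00623 by edgeR and BH).

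Efemp1 and Efemp2 encode fibulin-3 and fibulin-4. Efemp1, on chromosome 11 from 28853205 to 28926743, had 889.6, 865 and 894 CPM in FNcKO at 48 h, against 509, 711 and 509 CPM in FNcKO at 0 h, and 1031, 738 and 623 CPM in WT at 48 h, against 466, 874 and 746 CPM in WT at 0 h. The times were separate in FNcKO and overlapped in WT, and the gene passed in neither (FNcKO log2 fold change 0.62 with SE 0.26, adjusted p = 0.0999 by edgeR and BH; WT 0.20, SE 0.26, BH-adjusted p = 0.584). With total counts as the scale it passed in FNcKO (log2 fold change 0.89, edgeR, BH-adjusted p = 0.0418), a scale that moved the median of all genes there to 0.29.

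Efemp2, on chromosome 19 from 5474690 to 5481854, is needed in mice for elastic fiber assembly and for the activity of the crosslinking enzyme lysyl oxidase. It had 82.7, 89.3 and 92.7 CPM in FNcKO at 48 h, against 49.2, 39.4 and 45.3 CPM in FNcKO at 0 h, and 109, 91.9 and 80.9 CPM in WT at 48 h, against 43.6, 40.6 and 48.9 CPM in WT at 0 h. The groups of the 2 times were separate and tight. The rise was 1.98-fold in FNcKO (log2 fold change 0.98 with SE 0.16, adjusted p = 0.000743 by edgeR and BH) and 2.12-fold in WT (log2 fold change 1.08 with SE 0.16, adjusted p = 0.000282 by edgeR and BH).

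The emilins differed in their results. Emilin1, on chromosome 5 from 30913786 to 30921273, encodes an elastic fiber glycoprotein that also limits the processing of TGF-beta precursors. It had 47.02, 53.95 and 45.9 CPM in FNcKO at 48 h, against 36.6, 35.3 and 58.7 CPM in FNcKO at 0 h, and 40.8, 44.7 and 55.1 CPM in WT at 48 h, against 45.5, 28.7 and 46.3 CPM in WT at 0 h. The times overlapped and neither comparison passed (FNcKO log2 fold change 0.17 with SE 0.23, adjusted p = 0.632 by edgeR and BH; WT 0.22, SE 0.23, BH-adjusted p = 0.479).

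Emilin3, on chromosome 2 from 160906438 to 160912339, encodes a secreted relative of Emilin1. It had 7.502, 4.04 and 0.423 CPM in FNcKO at 48 h, against 59.6, 50.5 and 50.1 CPM in FNcKO at 0 h, and 0.761, 2.82 and 3.01 CPM in WT at 48 h, against 67.4, 37.6 and 74.3 CPM in WT at 0 h. Every 48 h library was below every 0 h library by a wide margin. The gene fell in FNcKO (log2 fold change −3.74 with SE 0.65, adjusted p = 0.00218 by edgeR and BH) and in WT (log2 fold change −4.77 with SE 0.70, adjusted p = 0.000589 by edgeR and BH). Without FNcKO replicate 1 at 48 h the FNcKO value was −4.58. In FNcKO at 48 h, Emilin3 and the fiber cell marker sum were both highest in replicate 1 and lowest in replicate 3, and in WT at 48 h both were lowest in replicate 1. In FNcKO at 0 h the 2 had opposite orders, with sums of 4274, 6054 and 9457 CPM in replicates 1 to 3. In WT at 0 h both were lowest in replicate 2. The part of fiber cell content in the Emilin3 level was not tested.

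**Figure D2:**
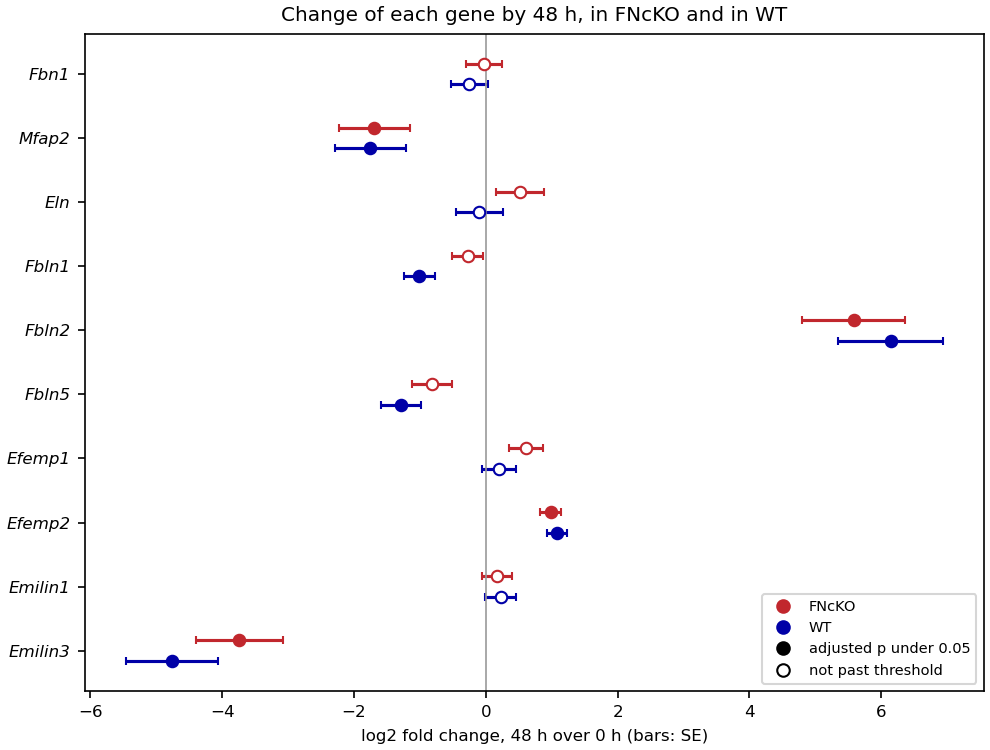
Log2 fold change of each gene at 48 h over 0 h with its SE, for FNcKO (upper point) and WT (lower point); filled points passed an adjusted p under 0.05. Fbln2, at 5.58 in FNcKO and 6.14 in WT, and Emilin3, at −3.74 in FNcKO and −4.77 in WT, lie far outside the other 8 genes.

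Levels of different genes were compared per length, as TMM-scaled RPKM over the coding length listed in the files. The listed lengths ran from 1139 bases for Mfap2 to 9900 bases for Fbn1, with 5893 bases for Fbln5. The order of the genes depends on these lengths, and their match to the transcripts present was not tested. Efemp1 and Fbln1 led the set at 0 h with 283 ± 57.4 and 281 ± 19.9 RPKM in FNcKO (SD, n = 3), and 342 ± 103 and 414 ± 64.4 RPKM in WT. Within each genotype their 0 h libraries overlapped. Fbn1 came next in both genotypes at 0 h, with 65.6 ± 15.2 RPKM in FNcKO and 95.04 ± 19.1 RPKM in WT, and Mfap2 followed it, overlapping Fbn1 in FNcKO and not in WT. Below came Efemp2, then Emilin3 and Emilin1, whose libraries overlapped in both genotypes, and then Eln and Fbln5, which also overlapped each other. Fbln2 was last of the 10 at 0 h, with 1.83 ± 0.291 RPKM in FNcKO and 2.95 ± 1.11 RPKM in WT, and its libraries overlapped those of the gene above it in both genotypes.

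At 48 h Efemp1 led in both genotypes, at 434 ± 7.87 RPKM in FNcKO and 392 ± 103 RPKM in WT. Fbln2 reached 87.8 ± 61.99 RPKM in FNcKO, behind Efemp1 and Fbln1, and 208 ± 120.3 RPKM in WT, behind Efemp1 alone and overlapping Fbln1. By its mean Fbn1 came next, and its libraries overlapped those of Fbln2 in both genotypes. Then came Efemp2, whose libraries were separate from those of Fbn1 in FNcKO and overlapped them in WT, then Mfap2 and Emilin1, which overlapped in both, and then Eln and Fbln5, which were separate in both. Emilin3 was last, at 1.12 ± 0.995 RPKM in FNcKO, where it overlapped Fbln5, and 0.617 ± 0.3503 RPKM in WT. Fbln2 made up 2.32, 10.6 and 16.2% of the summed RPKM of the 10 genes in FNcKO libraries at 48 h, against 0.227, 0.243 and 0.2696% at 0 h. In WT its share was 23.9, 9.04 and 28.4% at 48 h, against 0.389, 0.171 and 0.395% at 0 h. Fbn1, Fbln1 and Efemp1 together held 63.5% to 92.6% of the sum over the 12 libraries.

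**Figure D3:**
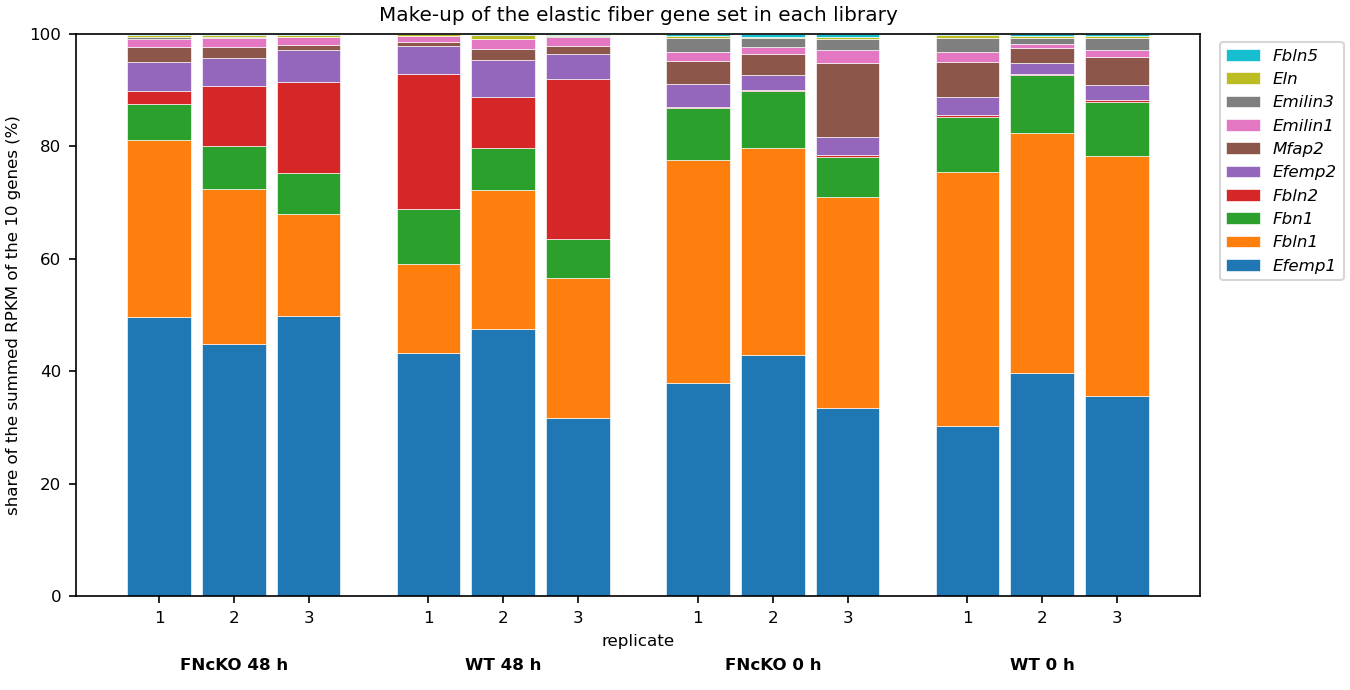
Share of the summed RPKM of the 10 genes taken by each gene, as stacked bars for each library, with FNcKO then WT at 48 h, followed by FNcKO then WT at 0 h, from left to right. The Fbln2 band reaches 16.2% in FNcKO and 28.4% in WT at 48 h and is thin at 0 h, where Efemp1, Fbln1 and Fbn1 fill most of each bar.

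A ratio of 2 genes within a library does not depend on how libraries are scaled. The RPKM ratio of Fbln2 to Fbln1 was 0.0738, 0.385 and 0.891 in FNcKO at 48 h, against 0.00573, 0.00659 and 0.00717 in FNcKO at 0 h. In WT it was 1.504, 0.364 and 1.14 at 48 h, against 0.00862, 0.00400 and 0.00927 at 0 h. Fibulin-2 transcripts thus exceeded those of fibulin-1 per length in 2 of 3 WT libraries at 48 h and in no other library.

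The RPKM ratio of Emilin3 to Emilin1 was 0.155, 0.0729 and 0.00897 in FNcKO at 48 h, against 1.59, 1.39 and 0.831 in FNcKO at 0 h. In WT it was 0.0182, 0.0614 and 0.0532 at 48 h, against 1.44, 1.28 and 1.56 at 0 h. Emilin3 exceeded Emilin1 in 5 of the 6 libraries at 0 h and in none at 48 h. The RPKM ratio of Mfap2 to Fbn1 was 0.403, 0.249 and 0.111 in FNcKO at 48 h, against 0.437, 0.366 and 1.87 in FNcKO at 0 h, and 0.0776, 0.271 and 0.1996 in WT at 48 h, against 0.642, 0.256 and 0.521 in WT at 0 h, so the times overlapped in both genotypes.

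**Figure D4:**
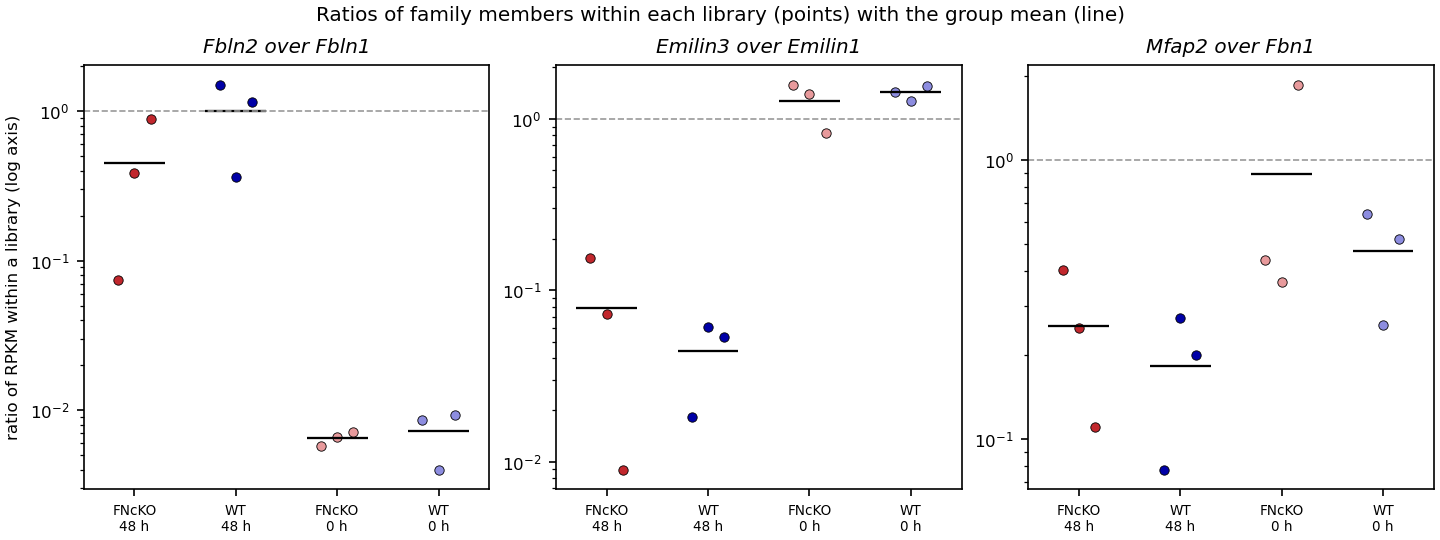
Ratio of the RPKM of 2 genes within each library on a log axis, for Fbln2 over Fbln1, Emilin3 over Emilin1 and Mfap2 over Fbn1; points are replicates 1 to 3, solid lines group means and the dashed line a ratio of 1. The 2 times are separate in the first and second panels and overlap in the third.

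FNcKO was compared with WT at each time, a comparison in which the knockout comes with a different strain background. At 48 h none of the 10 passed, where 0.24% of all tested genes were called, and none passed with DESeq2. None of the 10 had an unadjusted p under 0.05, where 5.47% of all tested genes had one. The libraries of the genotypes overlapped in all 10, and the share of all tested genes that overlapped was not counted. The widest difference was that of Fbln2, at 91.6, 449 and 638 CPM in FNcKO, against 1254, 309.5 and 1230 CPM in WT (log2 difference −1.24 with SE 0.64, adjusted p = 1 by edgeR and BH). It ran from −1.78 to −0.78 over the fits that each left out 1 library. Emilin3 differed by 0.86 (SE 0.71) and Fbln5 by 0.51 (SE 0.31) on the log2 scale, and the other 7 by between −0.31 and 0.34. Without FNcKO replicate 1 at 48 h the Emilin3 value was 0.0205. Pigment cell markers also differed between the genotypes. At 48 h 3 of 6 were lower in FNcKO and none was at 0 in any library. Their summed level was then 14.6 to 56.1 CPM in FNcKO, against 167 to 429 CPM in WT. At 0 h none of the 6 was called, with sums of 71.6 to 90.6 CPM in FNcKO, against 108 to 216 CPM in WT. Over time 1 of the 6 fell in FNcKO and 2 rose in WT. The part of pigment cells in the values of the elastic fiber genes was not tested.

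At 0 h none of the 10 passed either, where 0.144% of all tested genes were called, and none passed with DESeq2. Fbln1 alone had an unadjusted p under 0.05, at 0.0327, a share of 1 in 10 where 11% of all tested genes had one. Its FNcKO libraries, at 878, 1011 and 946 CPM, lay below its WT libraries, at 1143, 1551 and 1473 CPM (log2 difference −0.56 with SE 0.23, adjusted p = 0.42 by edgeR and BH). The other 9 genes overlapped between the genotypes, and the share of all tested genes that overlapped was not counted. Among these 9 the lowest value was that of Eln (log2 difference −0.77 with SE 0.37, adjusted p = 0.461 by edgeR and BH).

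None of the 10 passed for the difference of the 48 h responses, FNcKO minus WT, where 0% of all tested genes were called. Fbln1 again was the only one with an unadjusted p under 0.05, and DESeq2 called none. Over all genes, 735 (5.05%) had an unadjusted p under 0.05 and DESeq2 called 28. The response differences ran from −0.56 for Fbln2 (SE 0.94) to 1.03 for Emilin3 (SE 0.90) on the log2 scale. The Emilin3 value was 0.18 without FNcKO replicate 1 at 48 h. In data simulated on these libraries the fit recovered 4% of genes whose responses differed 2-fold and 61% of those that differed 4-fold. A 2-fold difference of responses was thus seldom detected in the simulation. Its changed genes were drawn from all tested genes, so these shares are not values for the 10. The SE of their response differences ran from 0.22 for Efemp2 to 0.94 for Fbln2.

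A list of 45 further genes with a role in microfibrils and elastic fibers was read beside the 10, of which 42 passed the filter. In FNcKO, 14 rose and 2 fell, where 24.8% of all tested genes were called, and the median log2 fold change was 0.47 against 0.00182 over all tested genes. In WT 16 rose and 8 fell, where 32.6% of all tested genes were called, and the median was 0.33 against 0.02 over all. Of these calls, 11 of 16 in FNcKO and 17 of 24 in WT held in all 19 alternatives. Those lost in some alternative were Ctss, Itga4, Itgb1, Loxl3 and Ltbp2 in FNcKO. In WT they were Adamts6, Bgn, Ctsk, Hspg2, Itgb3, Loxl1 and Loxl3. Of the 5 lysyl oxidases, which crosslink elastin and collagen, 3 rose in FNcKO and 4 in WT, and none fell. The call of Loxl3 (adjusted p = 0.0285 in FNcKO and 0.0438 in WT by edgeR and BH) was lost in 5 of the 12 fits that each left out 1 library in FNcKO, with adjusted p-values up to 0.117, and in 8 of 12 in WT, with adjusted p-values up to 0.152. Of the 5 tested proteases that can cleave elastin, 3 rose in FNcKO and 4 in WT. The WT call of Ctsk (adjusted p = 0.0497 by edgeR and BH) was lost in 8 of 12 such fits, with adjusted p-values up to 0.215. Of 8 ADAMTS and ADAMTS-like genes, 2 rose and 1 fell in FNcKO, and 2 rose and 3 fell in WT. Of 10 microfibril, fibulin and emilin relatives, 3 rose and 1 fell in FNcKO, and 2 rose and 3 fell in WT. Of 10 integrin chains, 3 rose in each genotype, and of 4 proteoglycans none was called in FNcKO, while 1 rose and 2 fell in WT. The integrin chain Itgb3, called in WT, was low there, with 0.476 to 1.75 CPM at 48 h, against 0.241 to 0.401 CPM at 0 h.

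Lox, the founding lysyl oxidase, had 14.9, 21.6 and 33.6 CPM in FNcKO at 48 h, against 2.91, 1.85 and 1.43 CPM in FNcKO at 0 h, and 128, 104 and 87.9 CPM in WT at 48 h, against 2.51, 2.65 and 2.05 CPM in WT at 0 h. All FNcKO libraries at 48 h lay below all WT libraries at 48 h. It rose 11.1-fold in FNcKO (log2 fold change 3.47 with SE 0.33, adjusted p = 2.14e-05 by edgeR and BH) and 44.01-fold in WT (log2 fold change 5.46 with SE 0.34, adjusted p = 7.46e-07 by edgeR and BH). Lox was the only one of the 42 genes that passed between the genotypes at 48 h (log2 difference −2.19 with SE 0.28, adjusted p = 0.00375 by edgeR and BH), and DESeq2 called it too. Of all tested genes, 0.24% passed at 48 h. Of the 42, 16.7% had an unadjusted p under 0.05 in edgeR, against 5.47% of all tested genes. At 0 h none of the 42 passed in edgeR, where 0.144% of all did. An unadjusted p under 0.05 was then found for 23.8% of the 42 and 11% of all. The difference of the responses did not pass for Lox in edgeR (−1.99, BH-adjusted p = 0.6) and passed with DESeq2 (BH-adjusted p = 0.0493).

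Adamtsl3, an ADAMTS-like protein of the matrix, had 2.54, 11.8 and 7.82 CPM in FNcKO at 48 h, against 0.224, 0 and 0 CPM in FNcKO at 0 h. These were 206 counts at 48 h against 2 counts at 0 h over 3 libraries each, a ratio of 90.2 with a 95% exact interval of 24.7 to 749.5 that covers counting error only (adjusted p = 0.000765 by edgeR and BH). In WT it had 16.9, 3.403 and 13.3 CPM at 48 h, against 0.401, 0.5101 and 0.361 CPM at 0 h (log2 fold change 4.67 with SE 0.78, adjusted p = 0.00075 by edgeR and BH). Emilin2, another emilin, had 20.3, 23.4 and 57.8 CPM in FNcKO at 48 h, against 0.671, 1.27 and 1.29 CPM in FNcKO at 0 h (log2 fold change 4.97 with SE 0.66, adjusted p = 0.000434 by edgeR and BH), and 4.34 on the log2 scale without FNcKO replicate 3 at 48 h. In WT it had 87.2, 33.1 and 25.3 CPM at 48 h, against 12.04, 6.12 and 12.2 CPM at 0 h, and rose too (log2 fold change 2.27 with SE 0.53, adjusted p = 0.00706 by edgeR and BH), with a value of 1.54 without WT replicate 1 at 48 h. At 0 h its FNcKO libraries lay below its WT libraries, a difference that missed the threshold in edgeR (−3.23, BH-adjusted p = 0.118) and passed with DESeq2 (BH-adjusted p = 1.26e-05).

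Mmp9, a gelatinase of neutrophils and other cells, had 16.5, 48.05 and 81.6 CPM in FNcKO at 48 h, against 1.23, 1.39 and 2.29 CPM in FNcKO at 0 h (log2 fold change 4.91 with SE 1.00, adjusted p = 0.00556 by edgeR and BH), and 4.32 on the log2 scale without FNcKO replicate 3 at 48 h. In WT it had 249.5, 30.2 and 48.97 CPM at 48 h, against 2.21, 2.04 and 0.361 CPM at 0 h (log2 fold change 6.11 with SE 1.02, adjusted p = 0.0014 by edgeR and BH), and 4.65 on the log2 scale without WT replicate 1 at 48 h. All 4 neutrophil markers rose in each genotype, with a summed level of 44.9, 41.2 and 109.8 CPM in FNcKO at 48 h, against 3.801 to 4.73 CPM in FNcKO at 0 h, and 343, 71.8 and 58.9 CPM in WT at 48 h, against 4.82 to 10.1 CPM in WT at 0 h. None was at 0 in all libraries except S100a9 in FNcKO at 0 h. WT replicate 1 at 48 h had the highest Mmp9 and the highest neutrophil sum, and the part of neutrophils in the Mmp9 level was not tested.

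Mmp12, the macrophage elastase, had 5.28, 11.6 and 11.9 CPM in FNcKO at 48 h, against 0.224, 0.231 and 0.717 CPM in FNcKO at 0 h (log2 fold change 4.64 with SE 0.68, adjusted p = 0.000496 by edgeR and BH), and 19.03, 9.92 and 4.15 CPM in WT at 48 h, against 0.602, 0.408 and 0.241 CPM in WT at 0 h (log2 fold change 4.66 with SE 0.66, adjusted p = 0.000257 by edgeR and BH). Without FNcKO replicate 3 at 0 h the FNcKO value was 5.28, and without WT replicate 1 at 48 h the WT value was 4.02. Of 4 macrophage markers, 2 rose in each genotype and none was at 0 in any library. Their summed level was 50.8 to 126 CPM in FNcKO at 48 h, against 22.2 to 49.05 CPM in FNcKO at 0 h, and 92.5 to 234 CPM in WT at 48 h, against 31.3 to 89.8 CPM in WT at 0 h. The part of macrophages in the Mmp12 level was not tested.

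The genes that fell were fewer. Adamtsl2, an ADAMTS-like protein that binds microfibrils, had 2.64, 1.42 and 1.16 CPM in FNcKO at 48 h, against 7.94, 11.2 and 4.45 CPM in FNcKO at 0 h (log2 fold change −2.17 with SE 0.45, adjusted p = 0.00372 by edgeR and BH), and 1.62, 2.14 and 3.53 CPM in WT at 48 h, against 10.1, 15.9 and 16.02 CPM in WT at 0 h (log2 fold change −2.53 with SE 0.44, adjusted p = 0.000899 by edgeR and BH). Mfap4, a microfibril-associated glycoprotein, averaged 86.2 ± 23.2 CPM in FNcKO at 48 h and 256 ± 78.2 CPM in FNcKO at 0 h (SD, n = 3 each), and fell there (log2 fold change −1.57 with SE 0.24, adjusted p = 0.00058 by edgeR and BH). In WT it averaged 111 ± 13.04 CPM at 48 h and 319.9 ± 23.2 CPM at 0 h, and fell too (log2 fold change −1.52 with SE 0.24, adjusted p = 0.000481 by edgeR and BH).

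Hmcn1 and Adamts6 fell past the threshold in WT. Hmcn1 encodes hemicentin-1, a giant relative of the fibulins, and averaged 21.9 ± 6.59 CPM at 48 h and 29.6 ± 9.83 CPM at 0 h in FNcKO (log2 fold change −0.43 with SE 0.28, adjusted p = 0.276 by edgeR and BH). In WT it averaged 17.9 ± 3.35 CPM at 48 h and 55.6 ± 8.04 CPM at 0 h (log2 fold change −1.63 with SE 0.28, adjusted p = 0.00083 by edgeR and BH), and the difference of the responses did not pass (log2 difference 1.20 with SE 0.39, adjusted p = 0.945 by edgeR and BH). Adamts6, a protease of the ADAMTS family, averaged 10.3 ± 8.14 CPM at 48 h and 27.7 ± 5.79 CPM at 0 h in FNcKO (log2 fold change −1.42 with SE 0.68, adjusted p = 0.154 by edgeR and BH). In WT it averaged 8.11 ± 3.57 CPM at 48 h and 35.1 ± 16.1 CPM at 0 h (log2 fold change −2.11 with SE 0.69, adjusted p = 0.0373 by edgeR and BH). That call was lost without the filter on low counts (0.0776), without replicate 1 of both genotypes at 0 h (0.0556) and without any one of 5 WT libraries, namely replicates 2 and 3 at 0 h and replicates 1, 2 and 3 at 48 h, with adjusted p-values of 0.0525 to 0.119 (edgeR, BH).

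**Figure D5:**
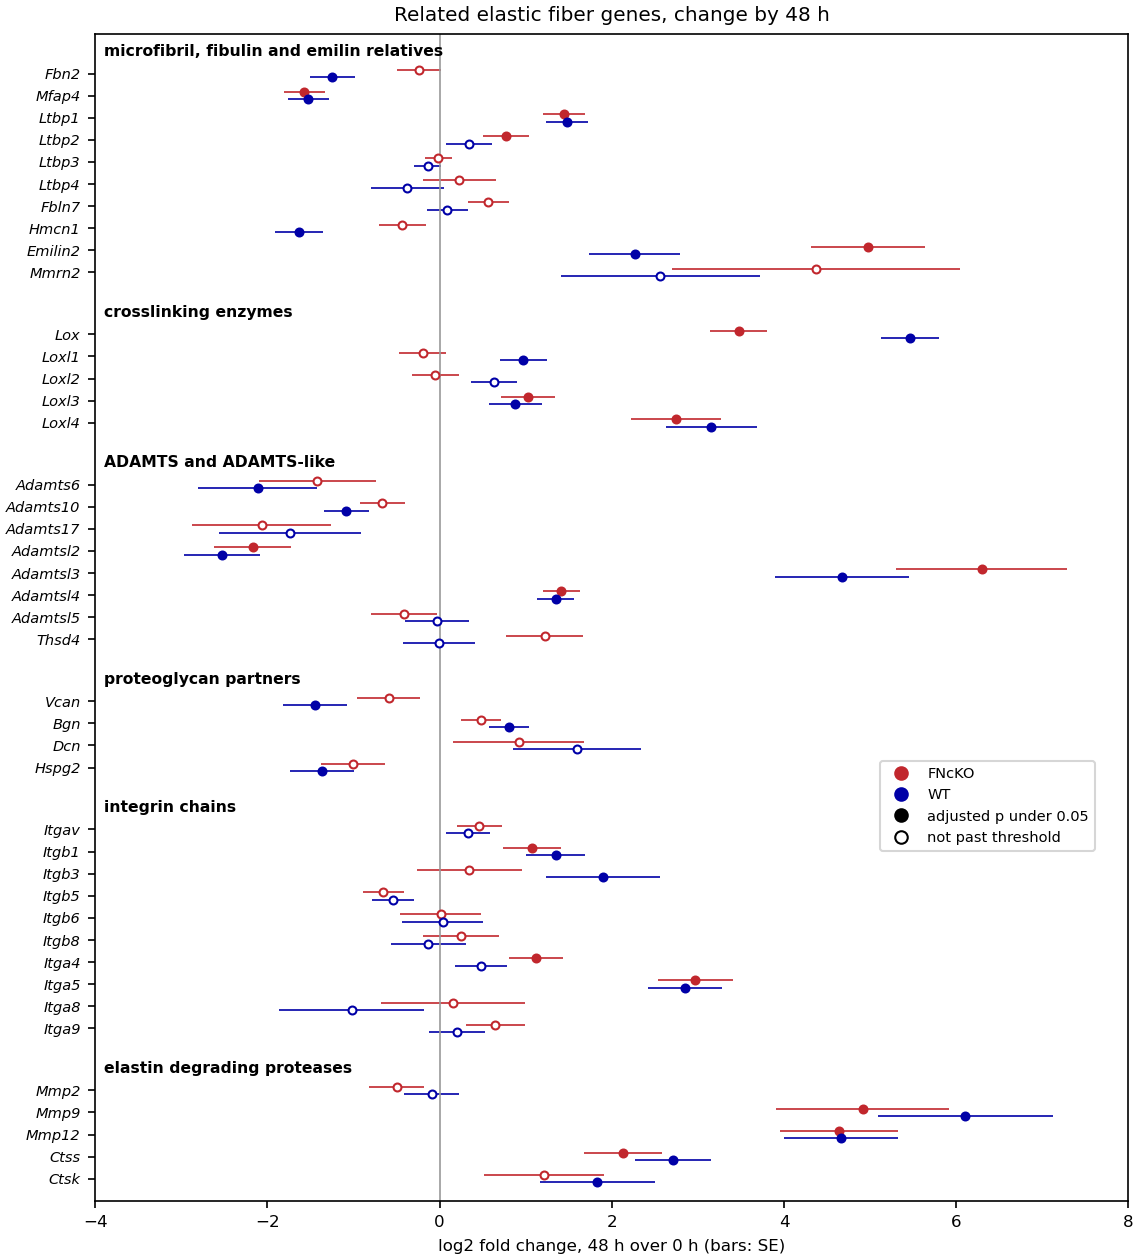
Log2 fold change at 48 h over 0 h with its SE for the 42 related genes, grouped by role, for FNcKO (upper point) and WT (lower point); filled points passed an adjusted p under 0.05. Lox, Adamtsl3, Mmp9 and Mmp12 lie to the right in both genotypes, and Adamtsl2 and Mfap4 to the left.

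The genes whose log2 CPM followed Fbln2 and Emilin3 most closely over the 12 libraries were looked up in the whole tested table, as a description. For Fbln2 these were Mmp14, with Pearson r 0.991, Gxylt2 (0.988), Tnnt2 (0.983), Hic1 (0.982) and Ehbp1l1 (0.982). For Emilin3 they were Fbxo10 (r 0.991), Sec14l1 (0.99), Sptb (0.988), Trim9 (0.988) and Ctnnd2 (0.987). The libraries fall into 2 times, and many genes share a step between 0 h and 48 h. None of the 10 closest genes was another of the 10 elastic fiber genes. With so few genes taken from 14560, this says little about whether the 10 move together.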

How the data were processed

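RNA was sequenced from lens capsules with attached lens epithelial cells, 3 libraries in each of 4 groups. The authors deposited whole-number read counts for 24147 genes per library, with coordinates on mm10. The submitters' processing notes name HTSeq 0.6.1p1, TopHat2 2.1.0, edgeR 3.16.5, Trim Galore 0.4.4, bedtools 2.17 and SAMtools 1.4, without options. The kit was stranded, per the labels' protocols, while the sources used here do not give the strand setting of the counting or its treatment of multiple matches. An entry for Mir3110 has a listed span that covers Fbn1 and Emilin3. Files also hold RPKM per gene, per the file headers, which equal count over coding length and library total with a largest relative difference of 1.4e-14. A combined deposited table holds 9 count columns. Of these, 8 equal the library they are named for, and the one named for WT 0 h replicate 1 equals FNcKO 0 h replicate 1 in all 24147 genes, so the per-library files were used.

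Counts were fitted in R 4.3.3 with edgeR 4.0.16 (filterByExpr with a count minimum of 10, TMM, robust quasi-likelihood, 4 group means over all 12 libraries), with Benjamini-Hochberg adjustment over 14560 genes and a threshold of 0.05. TMM factors ran from 0.754 to 1.17. The SE is the size of the log2 value over the square root of F, an approximation. Some 163 entries had repeated symbols, none of the 10 genes among them. The 19 alternatives included DESeq2 1.42.0, other scalings, no filter, a replicate block and leaving out each library. The members and lists were chosen with earlier results of these data known. Every one of the 10 genes is named. Of the related list, each comparison over time describes up to 4 passing genes with the highest and up to 4 with the lowest log2 fold change. Each genotype comparison describes the passing genes, and genes whose call did not hold are also named. On simulated data the fit recovered 24% of genes changed 2-fold and 83% changed 4-fold over time in FNcKO, and 32% and 77% in WT. Only 100 genes were changed at each fold there, against 3611 genes called in FNcKO and 4745 in WT. These shares therefore do not measure recovery in the real comparisons over time. Replicates of a group differed by 18.6 to 110 times sampling noise (chi-square per degree of freedom), so none was a repeat deposit. Symbols for 4 of 5 macrophage markers were found.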

Additional observations from a re-analysis of the deposited data

How the results depend on the processing

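Of the 10 calls among the elastic fiber genes over time, 8 held in all 19 alternatives and none changed direction. Both falls of Mfap2 lost their call in 8 of 19. For FNcKO its log2 values and adjusted p-values were −1.68 (0.0772) without the filter and −1.52 (0.103) with a replicate block; for WT they were −1.73 (0.058), −1.72 (0.0522), and −1.66 (0.0547) without both 0 h replicate 1 libraries (edgeR, BH). Leaving out each library gave −2.04 to −0.86 in FNcKO and −2 to −1.55 in WT. The fall of Fbln5 in FNcKO passed with the combined table's column in place of WT replicate 1 at 0 h (−0.98, edgeR, BH-adjusted p = 0.0493). It also passed without both 0 h replicate 1 libraries (−0.98, edgeR, BH-adjusted p = 0.04998). Both fits left out FNcKO replicate 1 at 0 h, so their FNcKO libraries were the same. Fbln5 stayed uncalled in FNcKO in 16 of the 19 alternatives.

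Total counts as the scale moved the median of all genes to 0.29 in FNcKO and 0.23 in WT, and the share of calls that were higher at 48 h to 82.4% (60.1% with TMM) in FNcKO and 76.3% (58.5%) in WT. For FNcKO over WT this share was 3.57% (17.1%) at 48 h and 30% (52.4%) at 0 h. Over all genes, FNcKO over WT at 48 h called 119 genes with DESeq2, 14 without both 0 h replicate 1 libraries, 9 with the combined column and 10 to 46 leaving out each library. At 0 h it called 10 with total counts, 129 with DESeq2, 2 without both replicate 1 libraries, 0 with the combined column and 2 to 28 leaving out each library. The difference of responses called 28 with DESeq2, 1 with the replicate block and 0 to 1 leaving out each library. FNcKO over time called 2299 without both replicate 1 libraries and 2232 (without FNcKO 48 h replicate 3) to 4095 leaving out each library. Of the related genes, DESeq2 called 3 at 0 h (Emilin2, Itga4 and Itga9, all lower in FNcKO, where leaving out each library gave 0 to 1) and 1, Lox, for the difference of responses.

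Of the 40 values that were not called among the 10 genes, 18 changed sign under some alternative. With total counts Fbn1 in FNcKO was 0.24, Eln in WT 0.099, Emilin1 −0.0218 between the genotypes at 48 h, −0.0598 at 0 h and 0.038 for the difference of responses, and at 0 h Fbln5 was −0.128 and Efemp2 −0.147. Without both replicate 1 libraries Efemp1 in WT was −0.0215, Fbln5 and Efemp2 at 0 h were −0.0137 and −0.0771, and the response difference of Mfap2 was −0.343. With the combined column Eln in WT was 0.0417, Efemp2 at 0 h −0.125, and the response differences of Mfap2 and Efemp2 were −0.514 and 0.0333. Leaving out each library, Fbn1 in FNcKO ran from −0.191 to 0.178, and in WT Eln ran from −0.494 to 0.135, Efemp1 from −0.0261 to 0.362 and Emilin1 from −0.000907 to 0.338. At 48 h between genotypes the ranges were −0.502 to 0.0482 (Fbn1), −0.00995 to 0.694 (Mfap2), −0.384 to 0.245 (Eln), −0.00306 to 0.375 (Efemp1), −0.189 to 0.0299 (Efemp2) and −0.0285 to 0.194 (Emilin1). At 0 h they were −0.577 to 0.599 (Mfap2), −0.17 to 0.205 (Fbln5), −0.0651 to 0.0939 (Efemp2), −0.151 to 0.246 (Emilin1) and −0.412 to 0.0255 (Emilin3). For the difference of responses they were −0.293 to 0.908 (Mfap2), −0.2 to 0.0195 (Efemp2) and −0.184 to 0.202 (Emilin1). The cause of these shifts was not tested.

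Libraries with the same replicate number in different groups did not deviate together (18 pairs, r from −0.474 to 0.291, 4 over 0.1), so the numbers were not used as pairs, and beyond Mfap2 the replicate block changed no call among the 10 genes. Of the related genes it ended the call of Ltbp2 in FNcKO (adjusted p = 0.0857) and of Adamts6 (0.0723), Ctsk (0.0835), Itgb3 (0.0789) and Loxl3 (0.06) in WT (edgeR, BH). With 3 libraries a group, changes near 2-fold were often missed in simulation, where 100 genes were changed at each fold. Over time 3611 genes were called in FNcKO and 4745 in WT. So many calls make the adjusted threshold less strict, so the simulated shares do not carry over to these comparisons. A gene that did not pass is not shown to be unchanged.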

Other observations

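Marker sums that stand beside no result above were as follows. The 5 lens epithelium markers summed to 548 to 964 CPM in FNcKO at 48 h, against 1895 to 2033 CPM in FNcKO at 0 h, and to 633 to 755 CPM in WT at 48 h, against 1138 to 1610 CPM in WT at 0 h, with 4 of 5 lower in FNcKO and 2 of 5 in WT. The 7 vascular endothelium markers summed to 18.5 to 48.9 CPM in FNcKO at 48 h, against 4.03 to 20.3 CPM in FNcKO at 0 h, and to 41.3 to 74.2 CPM in WT at 48 h, against 13.4 to 40.7 CPM in WT at 0 h, with 5 of 7 higher in FNcKO and 4 of 7 in WT. The 4 smooth muscle and pericyte markers summed to 11.2 to 26.96 CPM in FNcKO at 48 h, against 2.87 to 7.04 CPM in FNcKO at 0 h, and to 24.4 to 58.5 CPM in WT at 48 h, against 5.78 to 29.7 CPM in WT at 0 h, with 1 of 4 higher in each genotype.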
